A study of Mus musculus with 16 samples.

Results

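Gucy2d, Pde2a, Cnga3 and Car2 are genes linked to guanylyl cyclase D neurons, a small set of chemosensory neurons in the olfactory mucosa that signal through cGMP. The members were the probe sets annotated to these 4 genes, 1 probe set each, of 19505 genes in all. The expression values came from Clariom S microarrays of cells sorted from S100a5-tauGFP mice of the C57BL/6 strain, aged 7 to 12 weeks and of both sexes, in a study of the response to bourgeonal, an aldehyde odorant. S100a5 expression in olfactory neurons follows activity, so that GFP from this reporter is meant to mark active neurons. All 24 mice were kept singly in clean air chambers for 40 hours. From hour 26 they received 10 s pulses every 20 min, of bourgeonal in the odor groups and of filtered air in the vehicle groups. Each library held cells from 3 pooled mice, and by the count of mice 4 odor pools and 4 vehicle pools each gave a library from either side of the sort. This makes 4 groups of 4 libraries: vehicle titled GFP-, odor titled GFP-, vehicle titled GFP+ and odor titled GFP+.

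The names of the sort gates need care. Titles and cell type entries contradict each other about the gate in 16 of 16 samples, and S100a5 itself had its higher value under the title GFP- in 8 of 8 pools (mean log2 difference 1.02 ± 0.25, SD, n = 8 pools). Groups are therefore called by title, and a gate difference is the log2 value of the library titled GFP- minus that of the library titled GFP+ from the same pool. Values are deposited log2 values, and the levels of the 4 genes are not ranked against one another, because probe sets differ in brightness. As a rough guide to background, with that same limit, the 95th percentile of 321 vomeronasal receptor genes was taken in each library; it lay at 4.69 to 4.97 in the libraries titled GFP- and at 4.29 to 4.64 in those titled GFP+. The arrays pool many cells, so fewer cells of a type and less RNA per cell cannot be told apart.

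As background, guanylyl cyclase D neurons lie scattered in the epithelium and send their axons to the necklace glomeruli at the back of the olfactory bulb. They detect the peptides guanylin and uroguanylin, carbon disulfide and carbon dioxide. Receptor activation or bicarbonate raises cGMP through the cyclase Gucy2d, cGMP opens a channel that contains Cnga3, and the phosphodiesterase Pde2a breaks cGMP down. Car2, a carbonic anhydrase, supplies bicarbonate from carbon dioxide. Most other olfactory neurons use cAMP, made by Adcy3 and read by a channel with Cnga2. Pde2a and Car2 are also made by many other cell types of the body, whereas Gucy2d is the defining gene of these neurons.

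Gucy2d, the receptor cyclase, lay below the background guide in 16 of 16 libraries. Its log2 values were 2.91, 2.46, 2.73 and 2.65 in the vehicle libraries titled GFP- (pools 1 to 4) and 2.86, 2.92, 3.08 and 2.88 in the odor libraries titled GFP-. They were 3.03, 2.99, 3.04 and 2.88 in the vehicle libraries titled GFP+ and 3.03, 3.80, 2.96 and 3.15 in the odor libraries titled GFP+. The log2 values of the gates overlapped, and the odor library 2 titled GFP+ was the highest of the 16. Within each library, Gucy2d exceeded 3.12% to 22.7% of the vomeronasal genes when titled GFP- and 24.3% to 85.0% when titled GFP+. These 2 ranges did not overlap, and the difference between them was not tested.

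Cnga3, the cGMP-gated channel subunit of these neurons and of cone photoreceptors, was below the guide in 16 of 16 libraries as well. Its log2 values were 3.53, 3.29, 3.10 and 3.24 in the vehicle libraries titled GFP- and 3.20, 2.92, 3.52 and 2.96 in the odor libraries titled GFP-. In the libraries titled GFP+ they were 2.71, 2.41, 3.68 and 3.06 with vehicle and 3.32, 3.12, 2.85 and 2.92 with odor. The 4 groups overlapped throughout. The defining cyclase and the channel of guanylyl cyclase D neurons were thus not above the guide on either side of the sort, so these libraries do not bear out that name for the 4 genes, and they are described below gene by gene.

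Pde2a and Car2 were above the guide in 16 of 16 libraries. Pde2a, a phosphodiesterase that is stimulated by cGMP and hydrolyses both cGMP and cAMP, had log2 values of 5.94, 5.70, 5.18 and 5.58 in the vehicle libraries titled GFP- and of 6.25, 5.84, 5.48 and 5.59 in the odor libraries titled GFP-. In the libraries titled GFP+ its values were 8.69, 9.11, 9.52 and 9.56 with vehicle and 8.89, 9.39, 9.39 and 9.99 with odor. Every library titled GFP+ was above every library titled GFP-, and the gates did not overlap. In the libraries titled GFP- Pde2a lay close above the guide.

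Car2 had log2 values of 12.70, 12.89, 12.76 and 12.65 in the vehicle libraries titled GFP- and of 12.81, 12.77, 12.64 and 12.77 in the odor libraries titled GFP-. In the libraries titled GFP+ its values were 13.35, 12.54, 13.00 and 12.97 with vehicle and 12.61, 13.02, 13.12 and 12.81 with odor. The gates overlapped, and the spread was wider in the libraries titled GFP+ (SD 0.26, n = 8) than in those titled GFP- (SD 0.083, n = 8); the difference in spread was not tested.

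**Figure D1:**
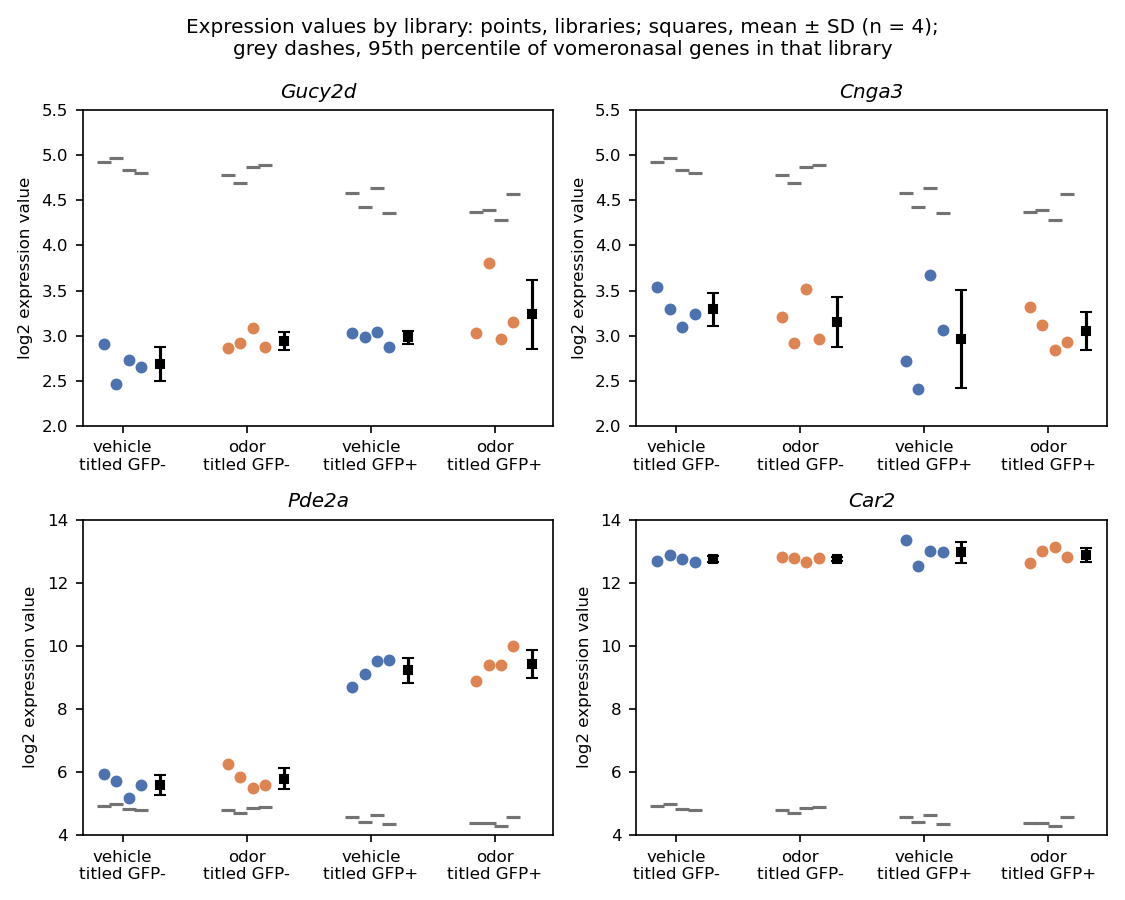
Log2 expression value of each gene (vertical axis) in the 4 groups, with a point per library, squares for the group mean with SD (n = 4) and grey dashes for the background guide of the same library. Gucy2d and Cnga3 lie below the guide in all 16 libraries, Pde2a is higher in each library titled GFP+ than in any titled GFP-, and the groups overlap for Car2.

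The gate difference of each pool asked on which side of the sort the RNA of these genes lay. In 8 of 8 pools Pde2a was lower under the title GFP-. Its log2 difference was -2.75, -3.42, -4.34 and -3.99 in vehicle pools 1 to 4 and -2.64, -3.55, -3.92 and -4.40 in odor pools 1 to 4. The smallest of these is a 6.24-fold and the largest a 21.1-fold difference. The mean over the pools was -3.63 ± 0.67 (SD, n = 8), or 12.3-fold, with a 95% interval of -4.09 to -3.16 on the log2 scale in limma, with the pool as a block. The exact two-sided sign-flip test gave p = 0.00781, the smallest that 8 pools allow, and the limma adjusted p was 2.98e-07. S100a5 lay on the other side of the sort in each of these pools. Over all genes 13.2% were called lower and 14.4% higher in this comparison (limma adjusted p under 0.05), and as fitted Pde2a ranked 290 from the most negative difference of 19505 genes. It was 3.73 below the median difference of all genes, which was 0.105.

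Within each treatment the same difference was seen for Pde2a. In vehicle pools the mean was -3.62 ± 0.69 (SD, n = 4; limma adjusted p = 9.31e-06), where 9.95% of all genes were called lower. In odor pools it was -3.63 ± 0.74 (SD, n = 4; limma adjusted p = 8.35e-06), where 10.2% of all genes were called lower. With 4 pools the exact sign-flip test cannot go below p = 0.125, which both treatments gave.

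Car2 differed little between the gates. Its log2 difference was -0.65, 0.35, -0.24 and -0.32 in vehicle pools 1 to 4 and 0.19, -0.25, -0.48 and -0.035 in odor pools 1 to 4, so that it was lower in the library titled GFP- in 6 pools and higher in 2. The mean of -0.18 ± 0.33 (SD, n = 8) was within the spread of the pools (limma adjusted p = 0.296; exact sign-flip p = 0.172), and it turned to 0.17 when each library was centred on its median. The 95% interval, -0.45 to 0.090 on the log2 scale, bounds the difference and does not show that the gates were equal.

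Gucy2d had a mean gate difference of -0.30 ± 0.30 (SD, n = 8), with 7 of 8 pools lower under the title GFP-. The exact sign-flip test gave p = 0.0156, and limma over all genes an adjusted p = 0.0776, which does not pass. With each library centred on its median the difference was 0.054, whereas it passed after quantile normalization (-0.39, limma adjusted p = 0.0223) and without odor replicate 3 (-0.37, limma adjusted p = 0.047). Both gates lay below the guide. The median of the vomeronasal genes differed between the gates in the opposite direction, at 3.42 to 3.57 in the libraries titled GFP- against 3.18 to 3.36 in those titled GFP+. Cnga3 had a mean gate difference of 0.21 ± 0.53 (SD, n = 8; limma adjusted p = 0.371; exact sign-flip p = 0.273), higher in 5 pools and lower in 3. For Cnga3 centring the libraries gave 0.57 (limma adjusted p = 0.00991). No fold change is given for Gucy2d or Cnga3 because neither gate had a level above the guide.

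**Figure D2:**
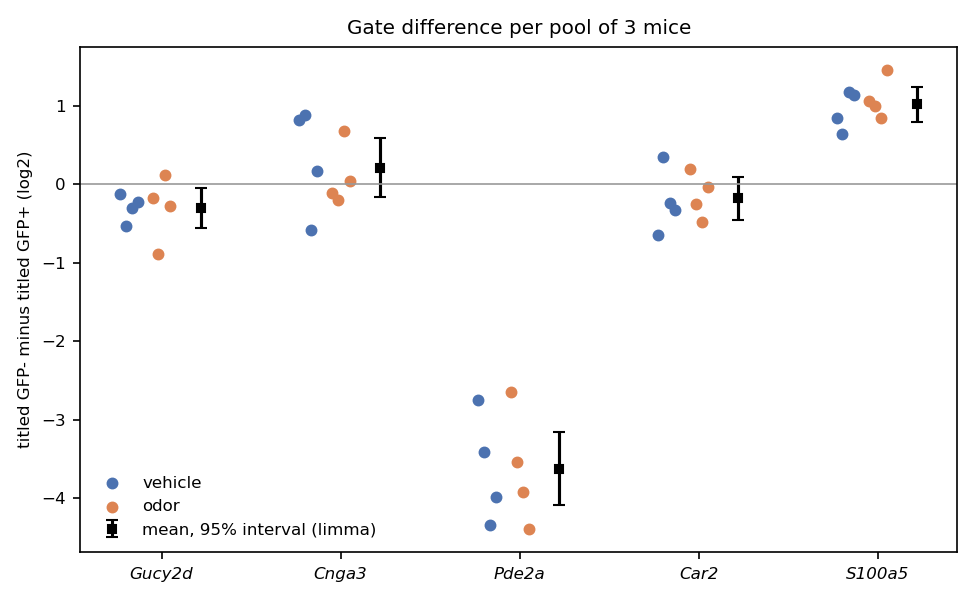
Gate difference (titled GFP- minus titled GFP+, log2, vertical axis) of the 4 genes and of S100a5, with a point per pool of 3 mice, coloured by treatment, and squares for the mean over 8 pools with its 95% limma interval. Pde2a lies between -4.40 and -2.64 in all pools, S100a5 between 0.65 and 1.46, and the pools of Car2 and Cnga3 lie on both sides of 0.

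The comparison of odor with vehicle asked whether bourgeonal changed these genes. None of the 4 passed in limma. The gate difference of Pde2a was -3.63 in odor pools and -3.62 in vehicle pools, a difference of -0.0014 with a 95% interval of -0.93 to 0.93 (limma adjusted p = 0.9997; exact permutation p = 1). Pde2a differed between odor and vehicle by 0.19 in the libraries titled GFP+ (95% interval -0.36 to 0.75) and by 0.19 in those titled GFP- (-0.28 to 0.66). Set against the vehicle library of the same number, the odor library had the higher Pde2a value in 3 of 4 numbers when titled GFP+ (mean 0.19 ± 0.23, SD) and in 4 of 4 when titled GFP- (0.19 ± 0.14, SD). With the number as a block neither passed (limma adjusted p = 0.905 and 0.938). The Car2 gate difference was 0.076 higher with odor (95% interval -0.46 to 0.61). Within the gates Car2 differed by -0.077 in the libraries titled GFP+ (-0.50 to 0.34) and by -0.0014 in those titled GFP- (-0.30 to 0.29), and these signs changed when single pools were left out.

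For Gucy2d the odor mean was 0.25 above the vehicle mean in either gate (limma adjusted p = 0.999 in the libraries titled GFP+ and 0.996 in those titled GFP-; exact permutation p = 0.229 and p = 0.0857), and for Cnga3 the differences were 0.084 and -0.14, all on values below the guide. In every one of these comparisons the odor and vehicle libraries of the 4 genes overlapped. Over all genes the test found 0% called for the difference of the gate differences (1109 genes had an unadjusted p under 0.05), 0.0103% for odor in the libraries titled GFP+ (2 genes, and 1 with the replicate number as a block) and 0% in those titled GFP- (869 genes unadjusted). With 4 pools against 4 the exact permutation test cannot go below p = 0.0286.

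No relation among the 4 genes passed across libraries, and 8 libraries a gate leave wide room for one. Over the 8 libraries of a gate, the 6 pairs of genes gave 12 relations, with Pearson r from -0.55 to 0.26 and Spearman rho from -0.45 to 0.50, and none passed (lowest adjusted p over the 12 relations 0.877 for Pearson and 1 for Spearman, exact permutation). For Pde2a and Car2, the pair above the guide, r was -0.11 (exact p = 0.791) and rho -0.14 (exact p = 0.752) in the libraries titled GFP+, and 0.26 (exact p = 0.546) and 0.50 (exact p = 0.216) in those titled GFP-. With treatment means removed r was -0.075 and 0.27. Without the 2 libraries farthest from the Pde2a median it was 0.84 and 0.28, so the value in the libraries titled GFP+ turned with those libraries left out. Over the 12 relations r ran from -0.75 (Gucy2d and Car2, titled GFP-) to 0.54 with treatment means removed, and from -0.83 (Cnga3 and Car2, titled GFP+) to 0.84 without the 2 farthest libraries.

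Over all 16 libraries the genes most like Pde2a, among those above the guide in at least 4 libraries, were 1810046K07Rik (Pearson r = 0.993), Anxa4 (0.992), a calcium-dependent membrane-binding annexin, and Adgrg6 (0.992), an adhesion G protein-coupled receptor. These correlations follow the gate, which all 16 points share in groups of 8. For Car2 the closest were Kdelr1 (0.789), a receptor that returns proteins to the endoplasmic reticulum, Tnnt1 (0.759), a muscle troponin, and Gramd4 (0.730). For Gucy2d they were 3425401B19Rik (0.764), Rnase6 (0.764) and Glis3 (0.762), and for Cnga3 Wdfy3 (0.798), Sh3rf2 (0.784) and Cdh23 (0.783). Both Gucy2d and Cnga3 had values below the guide. The search covered 13049 genes for Pde2a and Car2 and 13050 for Gucy2d and Cnga3. The highest of so many correlations over 16 libraries can be large by chance alone, and no test allowed for this. No co-expression is therefore shown for any of the 4 genes. For Pde2a the correlations with its closest genes were not computed within a gate.

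Other genes of the pathway were taken by role, and all counts are for the gate difference over 8 pools in limma, to be read against the 14.4% of all genes called higher and the 13.2% called lower. Of 5 ligands of receptor cyclases, 1 was higher in the libraries titled GFP- and 0 were lower, near the share over all genes. That was Nppc, C-type natriuretic peptide (log2 difference 0.73, limma adjusted p = 0.000978), which was above the guide in 4 of 8 libraries titled GFP- and 3 of 8 titled GFP+. Guca2a, guanylin, had a difference of 0.29 and did not pass, and Guca2b, uroguanylin, lay below the guide in all libraries. Of 9 other guanylyl cyclases 0 passed, and 6 of them lay below the guide in all 16 libraries. Gucy2c, the intestinal receptor of guanylin and uroguanylin, which is named here after its values were seen, was above the guide in 7 of 8 libraries titled GFP- and 8 of 8 titled GFP+, with means of 5.36 ± 0.42 and 5.05 ± 0.23 (SD, n = 8), and did not pass (limma adjusted p = 0.183). Of 7 neuronal calcium sensors, a family that includes the cyclase activators, 0 passed, although 2 were called higher after quantile normalization. Both cGMP-dependent kinases, Prkg1 and Prkg2, were below the guide in all libraries.

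Subunits of the cyclic nucleotide-gated channel of the cAMP pathway did not pass between the gates. Cnga2, the main subunit of the olfactory channel, had means of 16.50 ± 0.12 in the libraries titled GFP- and 16.37 ± 0.13 in those titled GFP+ (SD, n = 8). Cngb1, a modulatory subunit, had means of 4.83 and 4.62 and was above the guide in 3 of 8 and 5 of 8 libraries. Of the 5 channel genes other than Cnga3 0 passed. Of 12 genes listed with the cAMP cascade 5 were higher in the libraries titled GFP- and 0 lower, where 14.4% and 13.2% of all genes were called. The list also holds Rtp1, Rtp2 and Omp, which are not components of the cascade and did not pass. Those higher were the phosphodiesterase Pde1c (0.67) of the neuronal cilia, the sodium-calcium exchanger Slc24a4 (0.51), the chloride channel Ano2 (0.46), Pde4a (0.45) and the cyclase Adcy3 (0.30), the last named after its values were seen. The median difference of the list was 0.18 against 0.105 for all genes.

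Phosphodiesterases went both ways, and Pde2a lay on the side of those that were lower. Of 22 others, 6 were higher and 7 lower in the libraries titled GFP-, with a median of 0.097, against 14.4% higher and 13.2% lower over all genes. Pde8a, a cAMP-specific enzyme, was lower by a log2 difference of -2.17 (limma adjusted p = 2.44e-07) with means of 7.16 and 9.33, and Pde3b, which cGMP inhibits, by -2.02, although it was above the guide in only 3 of 8 libraries titled GFP-. Pde4b, a cAMP-specific enzyme abundant in leukocytes, was below the guide in all libraries titled GFP- and was at least 2.68-fold lower there, a bound set by the guide. Pde10a, which hydrolyses both cyclic nucleotides, was higher by 1.39 (limma adjusted p = 0.00052), with means of 6.42 and 5.03, and Pde1c and Pde4a of the cAMP cascade were among the 6 that were higher. Of the 22, 6 lay below the guide in all libraries, and 1 of these, Pde6g, named after its values were seen, was among those called higher.

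Carbonic anhydrases other than Car2 showed 1 large difference. Car1, the carbonic anhydrase of red cells and colon, was below the guide in all libraries titled GFP- and at a mean of 7.56 in those titled GFP+, at least 6.55-fold lower in the former. Car15, a membrane-anchored member, was higher in the libraries titled GFP- (0.57, limma adjusted p = 0.00827), and so was Car3, on values below the guide. The other 12 of 15 did not pass, and 9 of the 15 lay below the guide in all libraries.

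The Ms4a family, membrane proteins that are known both from leukocytes and as chemoreceptors of guanylyl cyclase D neurons, had 10 of 16 members lower in the libraries titled GFP- and 1 higher, with a median of -0.75, where 13.2% of all genes were called lower and 14.4% higher. Ms4a4c had a log2 difference of -2.86, Ms4a6c was at least 2.74-fold lower and Ms4a6b at least 2.05-fold lower. Ms4a4b was at least 1.03-fold lower. The guide sets these bounds, because the libraries titled GFP- lay below it for Ms4a6c, Ms4a6b and Ms4a4b, and for Ms4a4c 3 of 8 of them were above it. Ms4a5, the member that was higher, and Ms4a2, 1 of the 10 lower, both named after their values were seen, lay below the guide in all libraries. Centring each library on its median moved the median of all genes to 0.46 and called 14336 of 19505 genes higher, so that high counts follow from the scaling itself. The Ms4a genes then stood at 9 lower and 5 higher, the phosphodiesterases at 6 lower and 12 higher, the other carbonic anhydrases at 1 lower and 12 higher, and the other guanylyl cyclases at 6 higher of 9. All measured genes of the cAMP cascade, ligand, channel, calcium sensor and kinase lists were called higher under that centring. Quantile normalization called 4200 of 19505 genes higher. Among them were 2 of 7 calcium sensors, 2 of 9 other guanylyl cyclases and 1 of 5 channel genes, with 0 lower in these lists.

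**Figure D3:**
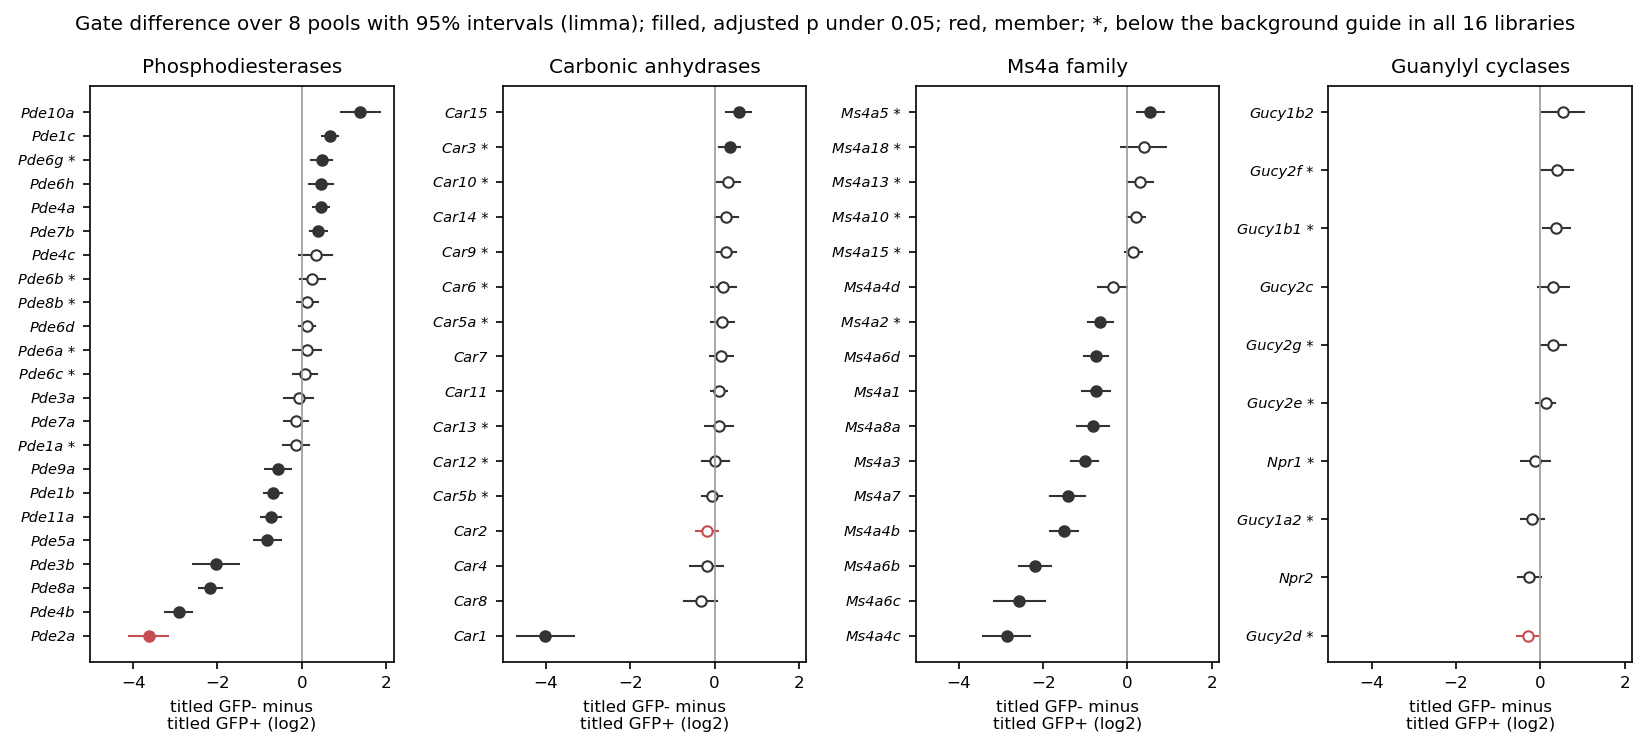
Gate difference over 8 pools (titled GFP- minus titled GFP+, log2, horizontal axis) of phosphodiesterases, carbonic anhydrases, Ms4a genes and guanylyl cyclases, with 95% limma intervals, filled points for adjusted p under 0.05, red for Pde2a, Car2 and Gucy2d and a star for genes below the guide in all 16 libraries. Pde2a and Car1 stand far to the left, while Car2 and the guanylyl cyclases lie near 0; points of genes below the guide in the libraries titled GFP- show fitted values, not bounds.

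Markers of 8 lists, of leukocytes, red cells, microvillar and supporting cells, progenitors and immature neurons, moved in the same direction as Pde2a, and their part in its difference was not tested. Counts of markers are for the gate difference over 8 pools in limma, where 13.2% of all genes were called lower and 14.4% higher. Summed levels are the log2 of the summed linear values of a list in a library, so the brightest markers weigh most. All 8 neutrophil markers were lower in the libraries titled GFP-, with summed levels of 7.01 to 8.58 there against 17.66 to 18.83 in those titled GFP+. All 7 macrophage markers measured were lower (6 after quantile normalization), at 7.19 to 8.58 against 13.24 to 14.96. The sums titled GFP+ mostly follow Lyz2 (means 6.11 titled GFP- and 14.05 titled GFP+), and the median difference of the list was smaller, at -1.97. Of 5 erythroid markers 4 were lower, at 7.75 to 8.24 against 9.73 to 10.93. All 5 markers of ionocyte-like microvillar cells were lower, at 10.16 to 10.83 against 13.70 to 14.36, and all 7 of tuft-like microvillar cells, at 6.54 to 7.15 against 9.47 to 10.78.

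All 5 sustentacular markers were lower (4 after centring or quantile normalization), at 12.53 to 14.92 against 15.13 to 16.17, as were the 4 progenitor markers, at 6.67 to 7.40 against 9.77 to 10.82. Of 6 immature neuron markers 5 were lower (4 lower and 1 higher with each library centred on its median), with a median difference of -1.78. Their summed levels, 14.41 to 14.90 against 14.64 to 15.15, overlapped between the gates. Those sums mostly follow Tubb3, the brightest of the 6, which did not pass (means 14.49 titled GFP- and 14.48 titled GFP+). Of the 47 markers measured in these 8 lists, 15 lay below the guide in all libraries titled GFP- and 2 in all titled GFP+. The 2 were the tuft-like marker Chat and the erythroid marker Klf1, both named after their values were seen. These 8 lists are those whose markers moved with Pde2a, so the direction of this count is not a separate result. The guide also lay higher in the libraries titled GFP-, at 4.69 to 4.97 against 4.29 to 4.64. The ranges of the other lists overlapped between the gates. There 1 of 7 endothelial markers was higher (Tie1, 0.53) and 1 lower (Pecam1, -0.38), and 1 of 4 ensheathing glia markers was lower (Sox10, -0.30). Over all genes 14.4% were called higher and 13.2% lower. None of 4 horizontal basal or 2 Trpc2-cell markers passed. With each library centred, 5 of 7 endothelial and 2 of 4 ensheathing glia markers were higher. So were 3 of 4 horizontal basal and 2 of 2 Trpc2-cell markers, and no marker of these lists was lower. That centring called 14336 of 19505 genes higher. Of 7 endothelial markers 5 were below the guide in all libraries, as were 2 of 4 horizontal basal cell markers, 1 of 4 ensheathing glia markers and 0 of 2 markers of Trpc2-expressing neurons. Pde2a and Car2 were not among the markers of any of these lists.

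**Figure D4:**
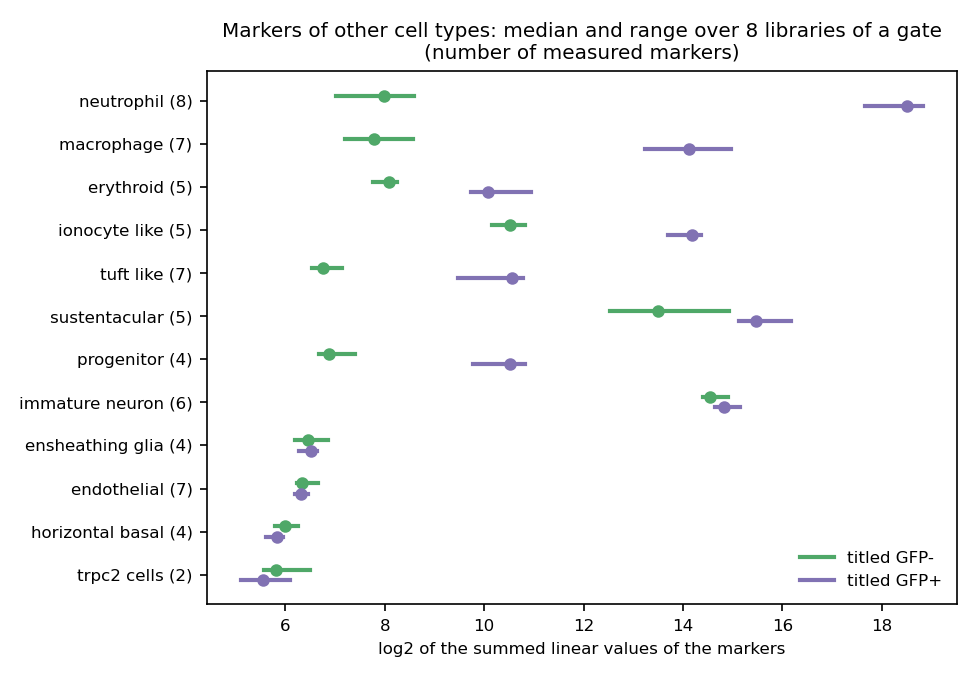
Summed level of each list of cell type markers (log2 of the summed linear values, horizontal axis) in the libraries titled GFP- and titled GFP+, with a point for the median and a line for the range over 8 libraries. The ranges of the neutrophil, macrophage, erythroid, microvillar, sustentacular and progenitor lists are apart, higher in the libraries titled GFP+, and those of the remaining lists overlap. Sums follow the brightest markers of a list, such as Tubb3 for immature neurons.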

How the data were processed

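RNA (50 to 100 ng) of sorted olfactory mucosa cells was hybridised to Clariom S arrays, 16 libraries in 4 groups of 4. The authors deposited log2 values; the submitters' processing notes name Affymetrix Expression Console, while version, summarisation and build were not stated there. Control probe sets and probe sets without a gene were left out, which gave 19505 genes, with the probe set of highest mean used where a gene had several. limma 3.58.1 in R 4.3.3 fitted gate differences over the 16 libraries, each pool being a block, and the 8 libraries of a gate for odor against vehicle, with Benjamini-Hochberg adjustment over all genes and a threshold of 0.05; the code was tested on simulated data. The gates of a pool come from the same mice by the count of mice, and, after subtracting group means, they correlated at 0.135 to 0.287 in odor pools and 0.0979 to 0.201 in vehicle pools. Same-numbered odor and vehicle libraries correlated at 0.157 to 0.210 when titled GFP+ and at 0.0879 to 0.161 when titled GFP-. These ranges overlap those of the gates of a pool and do not tell what a shared number stands for. The main fit of odor against vehicle left the number out, and an alternative used it as a block. A bound takes the background guide in place of values below it. The number of arrays limits the precision. Up to 4 genes of a list were named, those past the threshold with the largest differences, all members of lists of 6 or fewer being allowed, and for each of the 4 genes the 3 best correlated. The members, lists and rules were chosen with earlier results of these data known.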

Additional observations from a re-analysis of the deposited data

How the results depend on the processing

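The Pde2a gate difference over 8 pools passed under 14 of 14 alternatives, from -3.79 to -3.27 (limma adjusted p up to 3.18e-06). Without the pool as a replicate block it was -3.63, and the genes past the threshold were 4724 over all pools, 2786 in vehicle and 3078 in odor pools. Centring each library on its median raised these counts to 16128, 12023 and 12174, and 88.9% over all pools were then higher, against 52.2% as deposited and 62.9% after quantile normalization; the shares higher were 87.3% and 53.7% against 38.5% in vehicle pools and 87.3% and 55.0% against 43.3% in odor pools. Centring adds the same amount to the gate difference of every gene in a pool. The library medians were 5.94 to 6.00 when titled GFP- and 6.28 to 6.36 when titled GFP+. Why these medians differ was not tested. The same centring turned Gucy2d to 0.048 (odor), 0.060 (vehicle) and 0.054 (all pools) and Car2 to 0.21, 0.14 and 0.17, and brought Cnga3 past the threshold at 0.68 in vehicle pools (adjusted p = 0.0303) and 0.57 over all. Gucy2d passed after quantile normalization, at -0.39 (adjusted p = 0.0223), and without odor replicate 3, at -0.37 (adjusted p = 0.047), in a range of -0.37 to -0.20 with single pools left out. Odor against vehicle in libraries titled GFP+ gave 2 genes, 1 after quantile normalization, 0 with dim genes left out, 1 with the replicate number as a block and 0 to 2 with single pools left out; neither block changed a call of the 4 genes. An intensity trend in limma gave 2 genes for the odor minus vehicle gate difference, where quantile normalization gave Gucy2d 0.017. Leaving out single pools turned the sign of values that had not passed: Cnga3 in odor pools (-0.090 to 0.20), odor against vehicle of Cnga3 (-0.10 to 0.32) and Car2 (-0.22 to 0.050) in libraries titled GFP+ and of Car2 in those titled GFP- (-0.035 to 0.045), and the odor minus vehicle gate difference of Gucy2d (-0.15 to 0.19), Pde2a (-0.33 to 0.29) and Car2 (-0.069 to 0.26). With dim genes left out Gucy2d and Cnga3 were not in the fit. Signal below the background guide limits both genes.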

Other observations

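The Pde2a gate differences of odor and vehicle pools with the same number lay 0.11, 0.13, 0.42 and 0.41 apart (log2, numbers 1 to 4), while the differences themselves spanned -4.40 to -2.64. What a shared number stands for is not given in the labels, and no test was made.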
